A study of Papilio xuthus with 16 samples.

Results

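fringe (Px-4051), spalt (Px-4067) and Distal-less (Px-4037) are 3 patterning genes that the study placed on its microarray of the swallowtail butterfly Papilio xuthus. Their members were chosen as the probes named after the sequence of each gene, which gave 2 probes for fringe, 4 for spalt and 4 for Distal-less, that is 10 of the 8671 P. xuthus probes and 3 of the 3374 P. xuthus sequences. The larval epidermis was measured on 16 arrays with 2 colours, each array holding a dark region in Cy5 against a pale region of the same larval stage in Cy3. On 6 arrays black epidermis was set against white epidermis of the third instar (mimetic pattern), at intermolt on day 2 and at 0, 4, 8, 11 and 16 hours (h) after head capsule slippage (HCS), the first visible step of a molt. On 5 arrays the eyespot of the third thoracic segment was set against unmarked green epidermis of the thorax in the fourth instar, and on 5 arrays the V-shaped marking of the abdomen against unmarked green epidermis of the abdomen, in both cases at intermolt on day 2 and at 1, 4, 10 and 13 h after HCS. The fourth instar epidermis was taken while the cryptic pattern of the last instar formed. The array titles of these samples say mimetic and their tissue labels say cryptic, and the tissue labels were followed. No treatment is named in the labels. Slide 1 held the mimetic arrays of 8 and 11 h and the cryptic arrays of 4, 10 and 13 h. The remaining stages, the mimetic 16 h among them, lay on slide 2. Each stage of each comparison has 1 array, so the spread given below is the spread between stages. Dyes were not swapped, and dye, marking and body segment cannot be told apart within a comparison.

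Fringe is known from Drosophila as a glycosyltransferase that adds sugars to the Notch receptor and so changes which ligands Notch answers to, which places signalling at boundaries between groups of cells. Spalt is a zinc finger transcription factor that answers to the Decapentaplegic signal in the fly wing. Distal-less is a homeodomain transcription factor of the growing limb, and in butterfly wings both it and Spalt are known from the centres of adult eyespots. Larval markings of swallowtails lie in the epidermis of the trunk and are laid down anew at each molt.

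The sequences on which the probes were designed came from expressed clones, and they are shown because the probes of a clone did not all respond alike. The fringe clone is listed with 318 bases, which form 1 open frame of 106 codons; its first 300 bases are
fringe: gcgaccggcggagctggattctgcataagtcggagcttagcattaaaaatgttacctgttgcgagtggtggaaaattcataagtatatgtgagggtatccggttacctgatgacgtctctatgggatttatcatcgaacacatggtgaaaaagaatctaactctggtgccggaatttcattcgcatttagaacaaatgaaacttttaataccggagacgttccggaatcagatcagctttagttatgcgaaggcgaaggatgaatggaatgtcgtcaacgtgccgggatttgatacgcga
The spalt clone is interrupted by 100 bases listed as N, and the 172 bases before them hold a C2H2 zinc finger motif, with the codons of its 2 cysteines and 2 histidines (from base 27 to base 89) in capitals:
spalt: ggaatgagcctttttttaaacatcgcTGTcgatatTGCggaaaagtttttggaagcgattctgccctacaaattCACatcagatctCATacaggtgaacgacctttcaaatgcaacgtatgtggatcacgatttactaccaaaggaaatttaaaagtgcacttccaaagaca
Of the Distal-less clone, bases 282 to 399 are shown, from the first codon of its listed peptide, in capitals:
Distal-less: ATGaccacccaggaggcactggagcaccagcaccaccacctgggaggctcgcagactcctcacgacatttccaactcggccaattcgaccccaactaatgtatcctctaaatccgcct

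How far each gene could be measured differed widely. A signal counts as detected here when the scanner software called it well above background. Both fringe probes were detected in 32 of the 32 samples, with signals between 178 and 4690 (processed signal, in arbitrary units of intensity, background-subtracted and normalized between the dyes of an array). Of spalt, probe 3 was detected in 26 samples and probe 1 in 28, whereas probe 2 was detected in 0 samples and probe 4 in 4. Of Distal-less, probe 1 was detected in 28 samples, against 5 for probe 2, 0 for probe 3 and 3 for probe 4. For the dim probes the detection was uneven between the dyes. The dark region was detected on 16 of 16 arrays and the pale region on 10 for spalt probe 3 and on 12 for Distal-less probe 1. Over all P. xuthus spots, 3936 were well above background in Cy5 only and 1806 in Cy3 only. None of the 160 member spots was saturated or marked as an outlier.

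fringe was more abundant in the eyespot than in the green epidermis of the thorax at each of the 5 stages. The signals, as means of the 2 probes, were 676 in the eyespot and 372 in thoracic green at intermolt, and 3617 in the eyespot and 943 in thoracic green at 1 h. At 4 h they were 2990 in the eyespot and 2049 in thoracic green, at 10 h 1197 and 750, and at 13 h 1342 and 571. The difference was thus widest at 1 h, when the log2 ratio was 1.94, and narrowest at 4 h, when it was 0.54. The mean log2 ratio was 1.05 ± 0.56 (SD, n = 5), a 2.07-fold difference, with a standard error of 0.17 and an adjusted p of 0.0046 in limma. Of all 3374 sequences, 3.08% passed the test in this comparison and 1.3% passed it as higher in the eyespot, and fringe ranked 37 from the highest mean ratio. The exact sign-flip permutation test over the 5 arrays gave p = 0.0625, the smallest that 5 arrays allow. The call was lost when only the 5 eyespot arrays entered the fit (adjusted p = 0.21) and when only the arrays of slide 2 did, 2 of them from the eyespot (adjusted p = 0.17). The study had picked fringe and spalt from these arrays for their eyespot signal, so these tests are not independent evidence of that direction. By whole-mount in situ hybridization the study also reported stronger spalt expression in the eyespot. It detected no fringe signal by that method at the stage examined.

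The V-shaped marking differed less from its green neighbour. The signals were 473 in the V-shaped marking and 405 in abdominal green at intermolt, 1446 and 958 at 1 h, 1156 and 1006 at 4 h, 682 and 652 at 10 h, and 535 and 481 at 13 h. The V-shaped marking was above abdominal green on 5 of 5 arrays, by 0.25 ± 0.20 on the log2 scale (SD, n = 5), which did not pass the test (limma, adjusted p = 0.52), in a comparison in which 1.48% of all sequences were called. The eyespot ratio exceeded the V-shaped ratio at 5 of 5 stages, by 0.34 to 1.35, with a mean of 0.80 and a standard error of 0.24. The standard error comes from the main limma fit, which did not pair arrays by stage. That fit gave the difference an unadjusted p of 0.0045 and an adjusted p of 0.70. It called 0 of the 3374 sequences, and 177 had an unadjusted p under 0.05. Averaged over both cryptic markings the ratio was 0.65 with a standard error of 0.12 and passed the test (limma, adjusted p = 0.0049; 0.014 with the stage as a block, where 166 in place of 357 sequences were called), as did 10.6% of all sequences, and each of the 10 cryptic arrays had the dark region higher. With the arrays of slide 1 alone (0.48, adjusted p = 0.059) or slide 2 alone (0.90, adjusted p = 0.083) it did not pass.

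**Figure D1:**
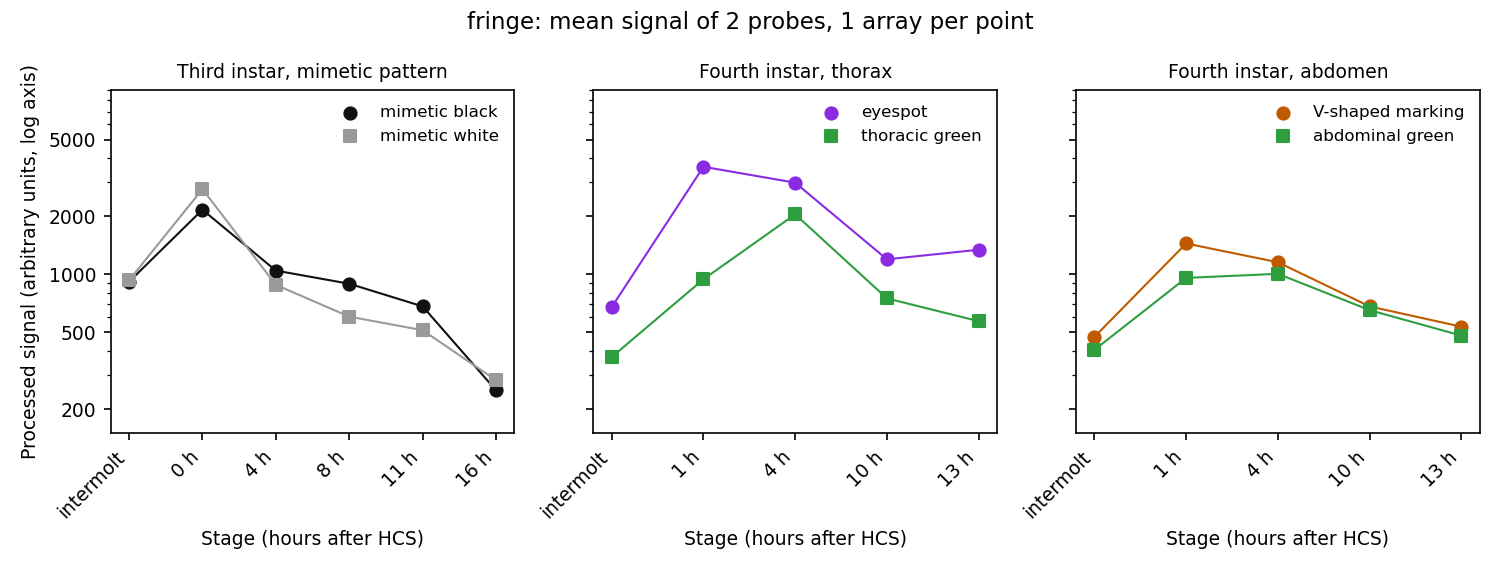
Processed signal of fringe (mean of 2 probes, log axis) by stage in the 6 regions, 1 array per point, with circles for dark and squares for pale regions. The eyespot lies above the other 3 regions of the fourth instar at each stage, and black and white epidermis cross.

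Between black and white epidermis of the third instar, fringe took no steady side. The signals were 915 in black and 931 in white epidermis at intermolt, 2166 and 2768 at 0 h, and 1046 and 882 at 4 h. At 8 h they were 894 in black and 603 in white epidermis, at 11 h 682 and 513, and at 16 h 250 and 282. Black epidermis was lower on the first 2 arrays and on the last, and higher on the 3 arrays from 4 to 11 h. The mean log2 ratio was 0.11 ± 0.36 (SD, n = 6; limma, adjusted p = 0.75), against a share of 2.13% of all sequences called. The mimetic minus cryptic difference was -0.54 with a standard error of 0.20 (limma, unadjusted p = 0.015, adjusted p = 0.26; 0.178% of all sequences called), and it was 0.01 on the arrays of slide 1 alone.

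fringe also varied with the stage in each region. In the third instar the level was highest at 0 h, 2.37-fold above intermolt in black and 2.97-fold above it in white epidermis, and lowest at 16 h, 8.66-fold below 0 h in black and 9.81-fold below it in white. In the fourth instar it was lowest at intermolt in all 4 regions. From there it was 5.35-fold higher at 1 h in the eyespot, 2.53-fold in thoracic green, 3.06-fold in the V-shaped marking and 2.37-fold in abdominal green. The peak fell at 1 h in both markings and at 4 h in both green regions, stages that lay on different slides. Among the 4 regions the eyespot ranked first at 5 of 5 stages, and abdominal green ranked last at 3 and thoracic green at 2. The order of the other 3 regions changed with the stage, although the V-shaped marking was above abdominal green at 5 of 5. The means of these 3 regions over stages were 937 ± 657 in thoracic green, 858 ± 424 in the V-shaped marking and 701 ± 273 in abdominal green (SD, n = 5 each). These SDs are the spread between stages, which the regions share, and do not measure how far the regions differ.

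Because the eyespot and the V-shaped marking carried the same dye at the same stages and on the same slides, their signals could also be set against each other across arrays. fringe was higher in the eyespot than in the V-shaped marking at 5 of 5 stages, by 1.07 ± 0.39 on the log2 scale (SD, n = 5; range 0.52 to 1.37). The unmarked regions were closer: thoracic green was above abdominal green at 3 of 5 stages, by 0.27 ± 0.45 on the log2 scale, with 1.03 at 4 h and values of -0.12 to 0.25 at the other stages. With each channel scaled to the same 75th percentile the means were 0.95 for the markings and 0.12 for the green regions. The summed signal of 12 muscle genes moved between these arrays too. It lay between 233607 and 620027 in the eyespot and 399399 and 975223 in the V-shaped marking, and the part of muscle in these differences was not tested. Between the 2 dyes of an array the 12 muscle genes gave a median log2 ratio of -0.03 for the eyespot, 0.00 for the V-shaped marking and -0.34 for black epidermis. In these comparisons limma called 0 of 12 each time, against 3.08%, 1.48% and 2.13% of all sequences. At an unadjusted p under 0.05 there were 0, 0 and 7 of 12, against 644, 533 and 654 of all 3374 sequences. On single arrays the log2 ratio of the summed muscle signal ran from -0.31 to 0.77 for the eyespot. It ran from -0.29 to 0.21 for the V-shaped marking and from -1.17 to 0.58 for black epidermis. The 2 fringe probes agreed on every array within 0.24 on the log2 scale.

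The highest spalt signals came from probe 3 alone, at stages of the fourth instar that all lay on slide 1. Probe 3 stayed low through the third instar, with signals of 31.4, 21.4, 59.1, 101, 61.9 and 42.7 in black epidermis and 12.5, 18.4, 54.3, 91.5, 54.8 and 20.2 in white epidermis, in time order. In the fourth instar it read 18.8 in the eyespot and 10.7 in thoracic green at intermolt and 31.5 in the eyespot and 28.5 in thoracic green at 1 h. At 4 h it read 1850 in the eyespot and 2530 in thoracic green, at 10 h 3880 and 2700, and at 13 h 5560 and 2870. These last 3 stages stand apart from all other samples: the 12 samples from 4 to 13 h lay between 1130 and 5560, and the other 20 samples between 8.94 and 101. In the abdomen, probe 3 read 25.6 in the V-shaped marking and 23.3 in abdominal green at intermolt, and 22.7 and 8.94 at 1 h. It then read 1130 in the V-shaped marking and 1170 in abdominal green at 4 h, 2960 and 2020 at 10 h, and 2040 and 1440 at 13 h. Against 1 h, the signal at 10 h was 123-fold higher in the eyespot, 94.7-fold in thoracic green, 130-fold in the V-shaped marking and at least 44.1-fold in abdominal green, where the 1 h signal was not well above background and the lowest detected signal of that array was used in its place. These folds depend on how background is treated: over the 4 regions the mean signal at 4, 10 and 13 h lay 6.78 above that at 1 h on the log2 scale, and 4.44 above it with normexp, loess and Aquantile.

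**Figure D2:**
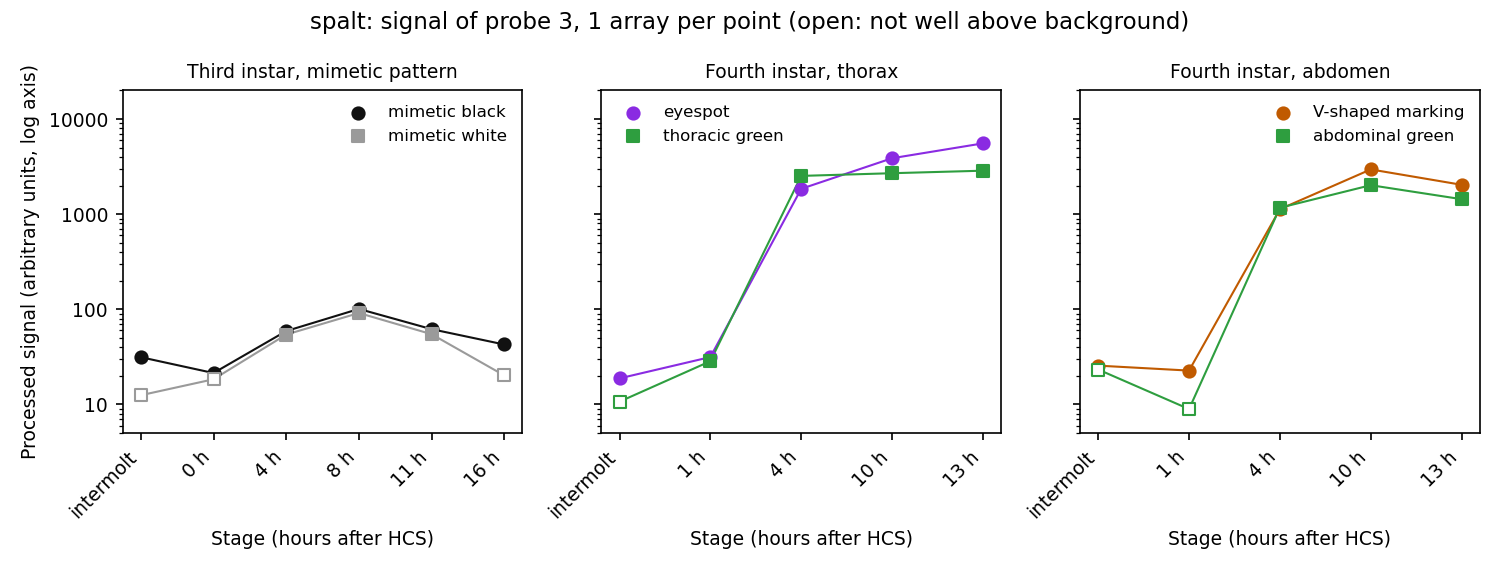
Processed signal of spalt probe 3 (log axis) by stage in the 6 regions, 1 array per point, with circles for dark and squares for pale regions and open symbols where the spot was not well above background. Marked and green regions of the fourth instar all lie at 1130 or more from 4 h after HCS, and the third instar stays at 101 or less.

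The arrays at 4, 10 and 13 h of the fourth instar lay on slide 1 and those at intermolt and 1 h on slide 2, so slide and stage cannot be told apart within that instar. The arrays at 8 and 11 h of the third instar shared the slide with the high samples and read 54.8 to 101, so that the lowest of the 12 high samples was 11.2-fold above the highest of these 4. The other probes of spalt did not show this change. Probe 1 read 87.4 to 147 at 4 h of the fourth instar and 58.1 to 84.6 at 10 and 13 h, against 44.9 to 61.5 at 1 h. The 44.9, of abdominal green, was not well above background. Probe 2 read at most 23.4 and probe 4 at most 117 in any sample. The rise was thus measured by 1 of the 4 probes named after the clone. The probes were not placed on the clone here, so what probe 3 matches was not tested.

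On these arrays no difference in spalt between marked and unmarked epidermis passed the test. The log2 ratio of probe 3, eyespot over thoracic green, was -0.45 at 4 h, 0.52 at 10 h and 0.95 at 13 h. The V-shaped over abdominal green ratio was -0.05 at 4 h, 0.55 at 10 h and 0.50 at 13 h. Both dark regions were thus higher at 10 and 13 h and neither was at 4 h. Of the 4 arrays at intermolt and 1 h, only the eyespot array at 1 h (0.14) had both channels detected. Over all arrays the mean log2 ratio of probe 3 was 0.40 ± 0.57 for the eyespot (SD, n = 5; limma, adjusted p = 0.36), 0.50 ± 0.54 for the V-shaped marking (n = 5; adjusted p = 0.31) and 0.51 ± 0.54 for black epidermis (n = 6; adjusted p = 0.19). With every probe fitted apart, 3.91%, 2.09% and 3.6% of the 8671 probes were called in these comparisons. Black epidermis was higher on 6 of 6 arrays (two-sided exact sign-flip permutation test, p = 0.031, the smallest that 6 arrays allow). Probe 3 was chosen after seeing the data, and probes 1, 2 and 4 gave mean ratios of -0.079, -0.021 and -0.36 for black epidermis. On the 3 mimetic arrays with both channels detected the mean ratio of probe 3 was only 0.15. The eyespot minus V-shaped difference was -0.10 with a standard error of 0.33 (limma, adjusted p = 0.99). As a mean over its 4 probes spalt had log2 ratios of 0.02 ± 0.11 (eyespot), 0.04 ± 0.17 (V-shaped) and 0.01 ± 0.23 (black), none of them called (limma, adjusted p of 0.91, 0.87 and 0.95). These means include probe 2, detected in 0 of 32 samples, and probe 4, detected in 4. They therefore cannot show that spalt was alike in marked and unmarked epidermis. The level of probe 3 was higher in the eyespot than in the V-shaped marking at 4, 10 and 13 h, by 0.71, 0.39 and 1.45 on the log2 scale, and it was higher in thoracic green than in abdominal green at the same stages, by 1.11, 0.42 and 0.99.

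Distal-less was dim throughout, and its levels rest on probe 1. In the third instar probe 1 read 44.5 in black and 36.6 in white epidermis at intermolt, 37.7 and 28.7 at 0 h, and 68.2 and 59.1 at 4 h. It read 94.0 in black and 55.9 in white epidermis at 8 h, 85.8 and 48.2 at 11 h, and 36.2 and 24.8 at 16 h. Black epidermis was above white epidermis on 6 of 6 arrays, by 0.50 ± 0.25 on the log2 scale (SD, n = 6), a 1.42-fold difference. The exact sign-flip permutation test gave p = 0.031, the smallest that 6 arrays allow. In limma with every probe fitted apart the unadjusted p was 0.0042 and the adjusted p 0.076. Probe 1 was chosen after seeing the data, and probes 2, 3 and 4 gave mean ratios of -0.34, 0.10 and -0.15 here. For probe 1, white epidermis was not well above background at 0 and 16 h. On the 4 arrays with both channels detected the mean of probe 1 was 0.52 and black was higher on 4 of 4. The 955 probes with a mean signal between 30 and 100 had a median ratio of 0.00 in the same comparison, with quartiles of -0.21 and 0.20.

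In the fourth instar Distal-less probe 1 read 62.2 in the eyespot and 46.8 in thoracic green at intermolt. It read 70.3 in the eyespot and 38.5 in thoracic green at 1 h, 288 and 243 at 4 h, 120 and 114 at 10 h, and 67.4 and 75.7 at 13 h. The V-shaped marking read 153 and abdominal green 135 at 4 h, against 42.4 and 18.9 at 1 h and 68.3 and 68.4 at 13 h. The 4 h stage was thus highest in all 4 regions, 4.27-fold above 13 h in the eyespot, 3.21-fold in thoracic green, 2.24-fold in the V-shaped marking and 1.97-fold in abdominal green, with both stages on 1 slide. The eyespot ranked first of the 4 regions at 4 of 5 stages and abdominal green last at 4 of 5. The mean log2 ratio was 0.29 ± 0.39 for the eyespot (SD, n = 5; limma, adjusted p = 0.34) and 0.36 ± 0.47 for the V-shaped marking (n = 5; adjusted p = 0.29), and the difference between them was -0.07 with a standard error of 0.23 (adjusted p = 0.99). Abdominal green was not well above background at intermolt and 1 h, and on the 3 V-shaped arrays with both channels detected the mean ratio was 0.18. At the 3 stages at which abdominal green was detected, thoracic green lay 0.85, 0.45 and 0.15 above it on the log2 scale (4, 10 and 13 h), and with each channel scaled to the same 75th percentile the difference at 13 h was -0.068. The eyespot exceeded the V-shaped marking at 4 of 5 stages, by 0.56 ± 0.46. As a mean over its 4 probes Distal-less had log2 ratios of -0.11 ± 0.26 (eyespot), -0.02 ± 0.36 (V-shaped) and 0.03 ± 0.40 (black), none of them called (limma, adjusted p of 0.74, 0.96 and 0.94). These means include probes 2, 3 and 4, detected in only 5, 0 and 3 of 32 samples. They therefore cannot show that Distal-less was alike in marked and unmarked epidermis.

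**Figure D3:**
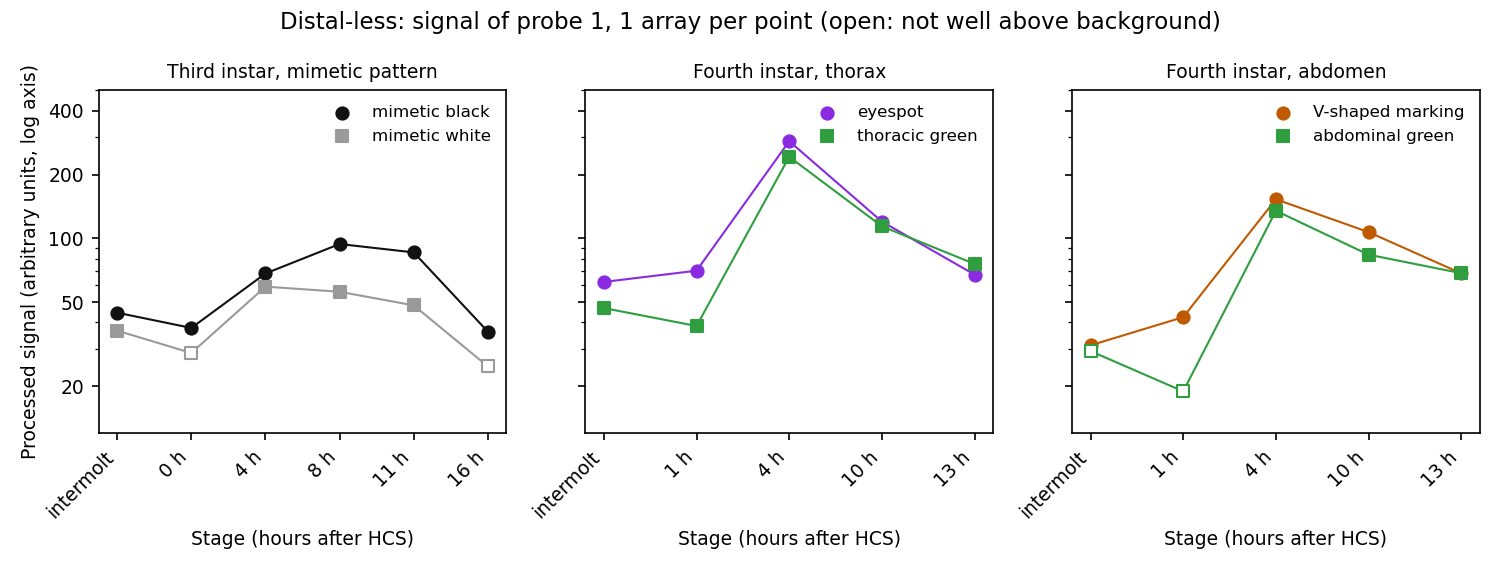
Processed signal of Distal-less probe 1 (log axis) by stage in the 6 regions, 1 array per point, with circles for dark and squares for pale regions and open symbols where the spot was not well above background. Black epidermis lies above white epidermis at each stage, and the fourth instar regions peak at 4 h, between 135 and 288.

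**Figure D4:**
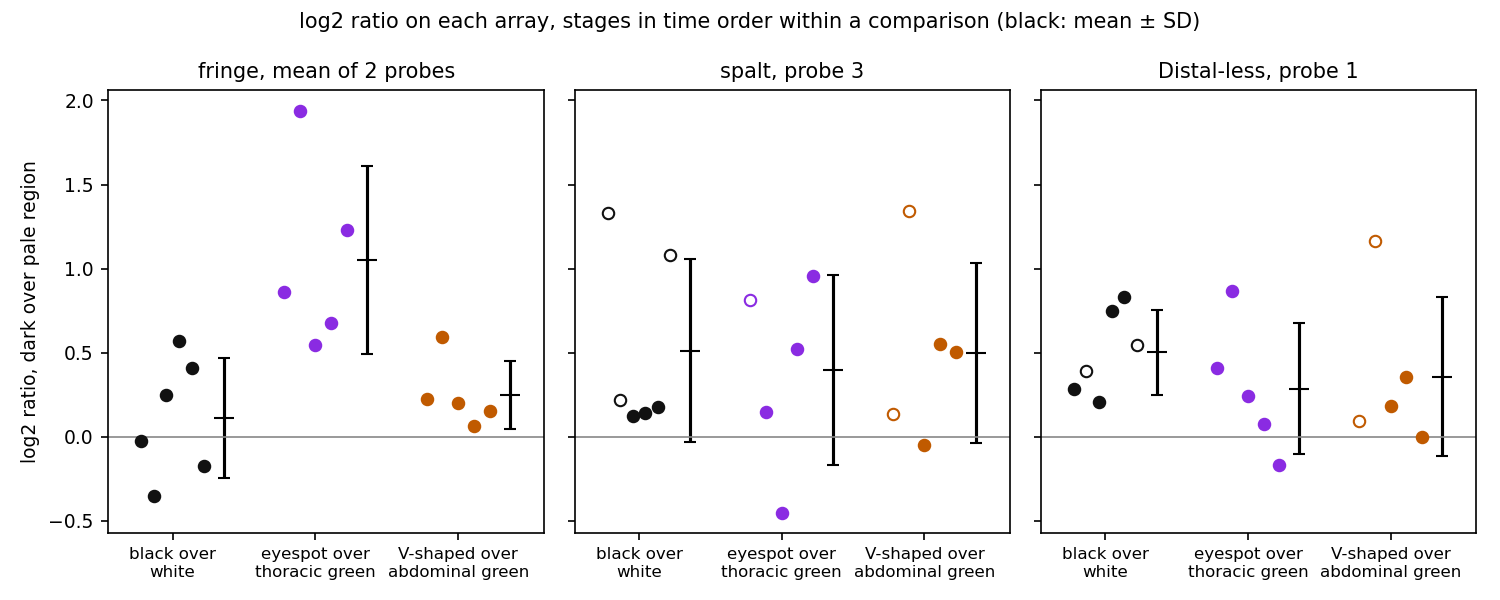
log2 ratio of the dark over the pale region on each array for fringe (mean of 2 probes), spalt probe 3 and Distal-less probe 1, with stages in time order within a comparison, open points where a channel was not well above background, and the mean ± SD at the right of each group. For fringe the 5 eyespot points lie between 0.54 and 1.94 and the 5 V-shaped points between 0.06 and 0.59, so that their ranges meet, and for the other genes the groups overlap widely.

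Of 15 other patterning genes listed beside these 3, 13 had probes among those analysed, and doublesex male and vein were not analysed here. In the eyespot 1 of 13 was called higher and 0 lower, namely Daughters against dpp, an inhibitor of Decapentaplegic signalling (log2 ratio 0.53, limma, adjusted p = 0.041), where 1.3% of all sequences were called higher. In the V-shaped marking 1 of 13 was called higher and 0 lower, namely decapentaplegic, the signal itself (0.76, adjusted p = 0.047), where 0.474% of all sequences were called higher. Daughters against dpp also had 0.53 in the V-shaped marking (adjusted p = 0.061), and decapentaplegic 0.63 in the eyespot (adjusted p = 0.062). For neither gene did the difference between the 2 markings pass the test (limma, eyespot minus V-shaped, adjusted p = 0.998 and 0.98). That contrast called 0 of the 3374 sequences, so it cannot show that the markings were alike. Both genes were called over the 2 cryptic markings together (0.53 and 0.70, adjusted p = 0.0031 and 0.0042), with 4.42% of all sequences called higher. In black epidermis 0 of 13 were called by limma and 2 had an unadjusted p under 0.05, where 2.13% of all sequences were called and 654 of 3374 had an unadjusted p under 0.05. The median ratio of the 13 genes was -0.06 in the eyespot, -0.01 in the V-shaped marking and 0.17 in black epidermis, against -0.02, -0.03 and -0.02 over all sequences. Detection was as uneven as among the 3 members: decapentaplegic, Daughters against dpp and engrailed were detected in 32 samples, and achaete, aristaless and cut in 0.

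**Figure D5:**
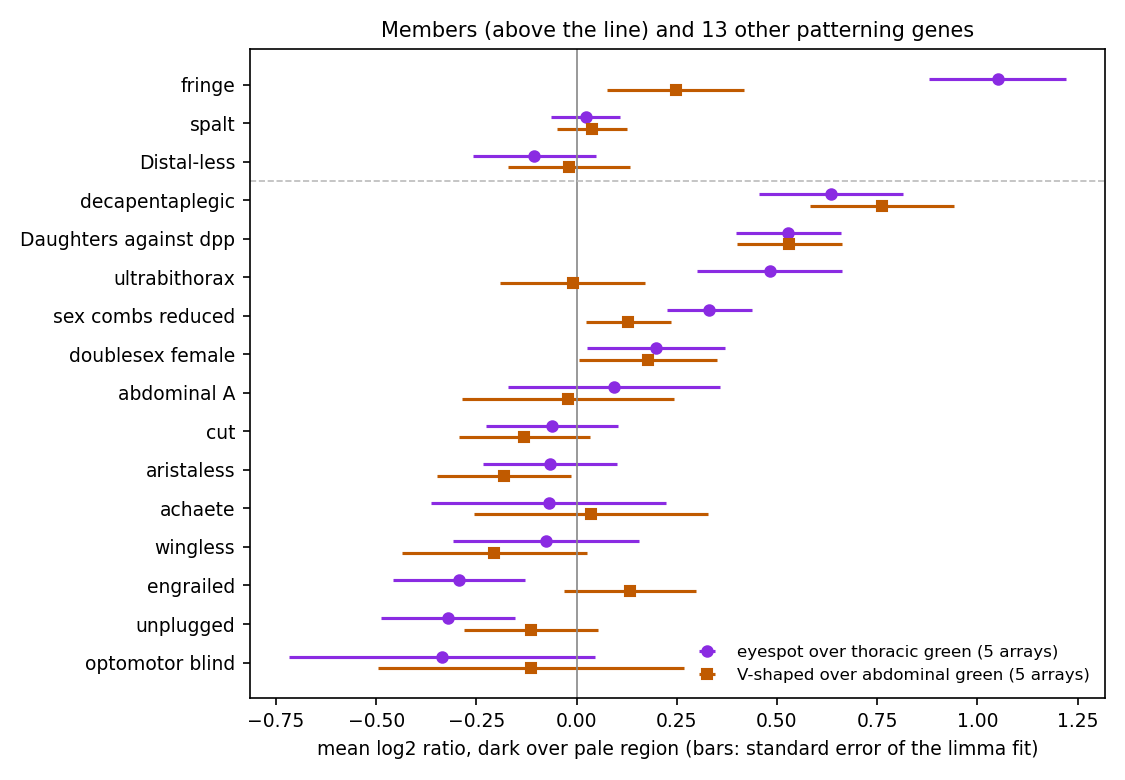
Mean log2 ratio of the dark over the pale region for the 3 members (above the dashed line, means over all their probes) and 13 other patterning genes, for the eyespot and the V-shaped arrays (5 each), with standard errors of the limma fit. fringe has an eyespot ratio of 1.05 against a V-shaped ratio of 0.25, and decapentaplegic and Daughters against dpp lie above 0 in both.

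The genes that give each body segment its identity were checked against the regions. sex combs reduced, a Hox gene of the head and anterior thorax, had median signals of 111 in the eyespot and 68.9 in thoracic green, and of 53.7 in the V-shaped marking and 43.3 in abdominal green. In black and white epidermis, which the study took from abdominal segments, its medians were 99.6 and 86.75. ultrabithorax, a Hox gene of the posterior thorax and anterior abdomen, was detected in 19 of 32 samples, at 4 of 5 stages in the eyespot and at 3 stages in each other region. The study listed ultrabithorax among genes expressed too low to measure. Over the stages its signal ran from 10.7 to 474 in the eyespot and from 8.68 to 555 in thoracic green. Its medians were 289 in the eyespot, 205 in thoracic green, 159 in the V-shaped marking and 191 in abdominal green. In black and white epidermis they were 19.7 and 21.9. By these medians neither gene separated thoracic from abdominal samples throughout. abdominal A, which would mark the abdomen, was detected in 10 of 32 samples and so could not check that label. yellow, a gene needed for black pigment, was higher in the eyespot by 4.06 and in the V-shaped marking by 4.33 on the log2 scale (limma, adjusted p = 0.013 and 0.015). In black epidermis yellow was higher than in white by 2.34, on all 6 arrays, but was not called (limma, adjusted p = 0.10).

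By the likeness of its log2 ratio over the 16 arrays, fringe lay closest to sex combs reduced (Pearson's r = 0.80), a vacuolar ATPase subunit (Px-0325, 0.74) and the cuticular protein PxutCPR38 (0.71), among 406 named sequences detected on at least 12 arrays. By its level over the 32 samples it lay closest to Px-0302 (0.78), Px-0209 (0.78) and Px-0368 (0.77), which have no assigned function. spalt, as a mean over its probes, lay closest by level to Px-0089 (0.91), cryptocephal (0.88), whose fly relative is a transcription factor needed for molting, and Px-0353 (0.86), and with probe 3 alone the first 2 were again Px-0089 (0.92) and cryptocephal (0.87). By ratio its mean lay closest to the cuticular protein PxutCPR63A (0.72), a LIX1-like protein (0.71) and the cuticular protein PxutCPR4A (0.67), none of which was among the first 3 for probe 3 alone, hormone receptor 3 (0.70), Px-0402 (0.59) and Px-0043 (0.58). Distal-less, as a mean over its probes, lay closest by level to Px-0223 (0.85), ribosomal protein L9 (0.82) and ftz transcription factor 1 (0.82), and by ratio to Px-0395 (0.82), doublesex female (0.76) and PxutCPR63A (0.72). With probe 1 alone the lists were Px-0223 (0.86), Px-0089 (0.82) and Px-0353 (0.79) by level, and Px-0343 (0.79), Px-0401 (0.73) and an organic cation transporter (Px-4002, 0.69) by ratio. These correlations are descriptions: the samples share 16 arrays, 2 slides and the time course of 2 molts.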

How the data were processed

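The authors turned total RNA of each region into labelled cRNA and hybridised that of a pale (Cy3) and a dark (Cy5) region to each custom array. The deposited files are Feature Extraction 9.5.3.1 scanner output with linear intensity values, and the deposited series table holds log10 ratios. For each probe the log2 ratio of the deposited processed signals was taken, spots marked as outliers were left out (220 of 138736), and probes of a sequence were averaged. Genes were named through the study's gene lists. limma 3.58.1 in R 4.3.3 fitted 1 mean per comparison to all 16 arrays, with Benjamini-Hochberg adjustment over 3374 sequences, called under 0.05, and was tested on simulated data. Levels were not scaled between arrays. Of all probes, 78.0% to 88.5% were well above background in a sample. The main fit did not pair the eyespot and V-shaped arrays of a stage. Differences given stage by stage used the stage in the labels, as did a separate fit with the stage as a block (consensus correlation 0.28). Members, gene lists and tests were chosen with earlier results of these data known; likeness was ranked by the 3 highest correlations among named sequences. Restriction to spalt probe 3 and Distal-less probe 1 was chosen after seeing the data. The array number limits precision. Python 3.11.15, numpy 2.4.6, pandas 2.3.3 and matplotlib 3.10.9 were used. yellow-h3 was not analysed here.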

Additional observations from a re-analysis of the deposited data

How the results depend on the processing

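The fringe call in the eyespot held without any 1 of the 16 arrays (0.83 to 1.18, limma adjusted p of 0.0055 to 0.026), and so did the cryptic call (0.54 to 0.71). It was lost with only the 5 arrays of the comparison (1.05, adjusted p = 0.21) and on slide 2 alone (1.40), and the cryptic call on slide 1 (0.48) and slide 2 alone (0.90), with fewer arrays in each fit. With the stage as a replicate block fringe kept both calls (eyespot 1.05, adjusted p = 0.0047), while the counts of called sequences became 166 (cryptic), 1 (eyespot minus V-shaped) and 2 (mimetic minus cryptic), against 357, 0 and 6. The mean ratios of spalt and Distal-less over their probes lay near 0 and changed sign often, for causes that were not tested, and were not called except in the mimetic comparison with normexp and median centring. They include spalt probes 2 and 4, detected in 0 and 4 of 32 samples, and Distal-less probes 2, 3 and 4, detected in 5, 0 and 3. A mean over probes counted as detected where any 1 of its probes was, and by that rule no array was dim in both channels. Leaving such arrays out of the exact test therefore removed none, and it could not check the undetected probes within a mean.

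The counts of called sequences, against 72 (mimetic), 104 (eyespot), 50 (V-shaped), 357 (cryptic), 0 (eyespot minus V-shaped) and 6 (mimetic minus cryptic), varied as follows. With every probe fitted apart, 312, 339, 181 and 1054 probes were called in the first 4. With normexp and median centring the counts were 780, 401, 571 and 1074, and 3 for the last. With normexp, loess and Aquantile the mimetic count was 132. With only the arrays of a comparison the first 4 were 7, 4, 1 and 168. With slide as a fixed block they were 133 (mimetic) and 3 (mimetic minus cryptic). The last count was 3 after 75th percentile scaling, 2 with the series table and 2 with the median over probes. Slide 1 alone gave 14, 59, 7, 80, 3 and 18, and slide 2 alone 1, 2, 1, 6, 1 and 0. Leaving out 1 array gave 13 to 116, 40 to 122, 15 to 124, 211 to 406, 0 to 1 and 1 to 12. The lowest mimetic count came without the 8 h array, the lowest eyespot count without the 10 h array and the lowest V-shaped count without the 4 h array.

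The following log2 ratios had the opposite sign to the mean over probes. For spalt these were, by probe, -0.079 for probe 1 in the mimetic comparison, -0.021 (mimetic), -0.34 (eyespot), -0.24 (V-shaped), -0.29 (cryptic) and 0.27 (mimetic minus cryptic) for probe 2, 0.065 (mimetic minus cryptic) for probe 3, and -0.36 (mimetic), -0.068 (eyespot), -0.23 (V-shaped), -0.15 (cryptic) and 0.16 (eyespot minus V-shaped) for probe 4. With normexp and median centring spalt had -0.21 (mimetic, limma adjusted p = 0.019, called), -0.0064 (eyespot), -0.048 (V-shaped), -0.027 (cryptic) and 0.042 (eyespot minus V-shaped). With 75th percentile scaling it had -0.0087 (mimetic) and 0.017 (eyespot minus V-shaped), with slide as a block 0.037 (mimetic minus cryptic), and with the median over probes -0.059 (mimetic), -0.078 (V-shaped), -0.031 (cryptic) and 0.093 (eyespot minus V-shaped). Slide 1 alone gave 0.019 (eyespot minus V-shaped) and 0.16 (mimetic minus cryptic), and slide 2 alone -0.10 (mimetic), -0.080 (eyespot), -0.013 (V-shaped) and -0.047 (cryptic). For Distal-less these were 0.29 (eyespot), 0.36 (V-shaped) and 0.32 (cryptic) for probe 1, -0.34 (mimetic), 0.21 (eyespot minus V-shaped) and -0.065 (mimetic minus cryptic) for probe 2, and -0.15 (mimetic) and 0.012 (V-shaped) for probe 4. With normexp, loess and Aquantile it had 0.051 (eyespot), 0.059 (V-shaped), 0.055 (cryptic) and -0.021 (mimetic minus cryptic), and with normexp and median centring -0.18 (mimetic, adjusted p = 0.036, called), 0.086 (eyespot minus V-shaped) and -0.11 (mimetic minus cryptic). The series table gave 0.16 (V-shaped) and 0.074 (cryptic), the median over probes 0.020 (eyespot minus V-shaped), slide 1 alone 0.11 (V-shaped), and slide 2 alone -0.16 (mimetic), 0.20 (eyespot minus V-shaped) and -0.046 (mimetic minus cryptic). Only spots well above background gave 0.26 (eyespot), 0.37 (V-shaped) and 0.32 (cryptic). For fringe, 0.011 (mimetic minus cryptic, slide 1 alone) and -0.077 (mimetic, slide 2 alone) changed sign.

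Leaving out 1 array moved the ratios of spalt to between -0.044 and 0.092 (mimetic), -0.012 and 0.065 (eyespot), -0.0065 and 0.11 (V-shaped), -0.086 and 0.029 (eyespot minus V-shaped) and -0.075 and 0.062 (mimetic minus cryptic). It moved those of Distal-less to between -0.056 and 0.13 (mimetic), -0.11 and 0.13 (V-shaped), -0.11 and 0.012 (cryptic) and -0.23 and 0.0015 (eyespot minus V-shaped). Of the levels, with normexp, loess and Aquantile, the third instar rise of fringe at 0 h was 1.11 over intermolt and 2.40 over 16 h on the log2 scale, and 2.83 over 16 h after 75th percentile scaling. The rise of spalt probe 3 at 4 to 13 h was 4.14 over the third instar at 8 and 11 h and 4.44 over 1 h, and that of Distal-less probe 1 at 4 h was 0.81 over 13 h and 1.12 over 1 h. No array was repeated, and signals near background limit spalt and Distal-less.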
